A study of Mus musculus with 9 samples.

Results

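The genes described here are Apoe, the gene disrupted in this mouse strain, and 9 other protein-coding genes of chromosome 7: Apoc1, Apoc2, Apoc4, Tomm40, Bcam, Clptm1, Bcl3, Igsf23 and Sae1. They were picked by symbol, 10 of the 54532 gene IDs in the count table, to read the knockout locus in every library. The choice was made with the counts of these same libraries known, above all the Apoe counts of 1 library, so the levels are given as a description. All 10 passed the filter on low counts and were among the 14763 genes tested.

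Liver RNA was sequenced from 9 mice, 3 per group, all given as male, ApoE-/- and on the C57BL/6 background. The HFD + IgG1 mice ate a high-fat diet (41% of calories from fat) from 4 weeks of age for 20 weeks, then chow for 1 week. They were injected into the peritoneum with 3 mg of recombinant human IgG1 at 25, 26 and 27 weeks and killed at 29 weeks. The HFD + PBS mice had the same diet and schedule with PBS, the saline vehicle, and the normal diet mice were the unchallenged control, for which the sources used here give no ages. Because every mouse was labelled as lacking ApoE, no library was meant to be wild type, and the labels do not say which exons the ApoE-/- allele removes. Livers were taken for sequencing after Oil Red O staining and triglyceride measurement. Replicate numbers are those of the sample titles, which put replicates 5, 6 and 7 in the IgG1 group, while the treatment label of replicate 6 reads IgG2 and that of replicate 7 reads IgG3.

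Apolipoprotein E is the ligand by which chylomicron and very-low-density lipoprotein remnants are taken up by liver receptors, and mice without it build up remnant cholesterol in plasma. Its gene lies in a conserved cluster with the genes of 3 smaller apolipoproteins, and control regions shared by the cluster direct its expression in hepatocytes. Apolipoprotein C-I slows receptor uptake of remnants, apolipoprotein C-II is the cofactor of lipoprotein lipase, and apolipoprotein C-IV is a minor component of very-low-density lipoprotein.

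In GENCODE M21 on GRCm38 (mm10), all 10 genes lie on the minus strand of chromosome 7. Apoe (ENSMUSG00000002985) runs from 19696109 to 19699188. Clptm1 (19631571 to 19665033), Apoc2 (19671579 to 19677941), Apoc4 (19678083 to 19681479) and Apoc1 (19689481 to 19692660) have lower coordinates. Tomm40 (19701313 to 19715438) begins 2124 bp beyond the Apoe span, followed by Bcam (19756131 to 19771016), Bcl3 (19808462 to 19822770) and Igsf23 (19937305 to 19950756). Sae1 (16320234 to 16387806) stands apart, with a gap of 3243764 bp between its span and that of Clptm1. Counting rules matter for Apoc2: 646 of its 813 exon bases (79.5%) are also exon of Gm44805, a read-through gene of the same strand that joins Apoc2 to Apoc4 and held 1 count in all 9 libraries together. Apoc4 shares 119 of 2537 exon bases with Gm44805. Tomm40, Bcam and Bcl3 share 258, 52 and 161 exon bases with the antisense genes Gm20512, Gm26600 and Gm16175, which held 11, 1 and 17 counts over all libraries. Neither the use of strand in the counting nor its treatment of shared bases is recorded in the labels.

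**Figure D1:**
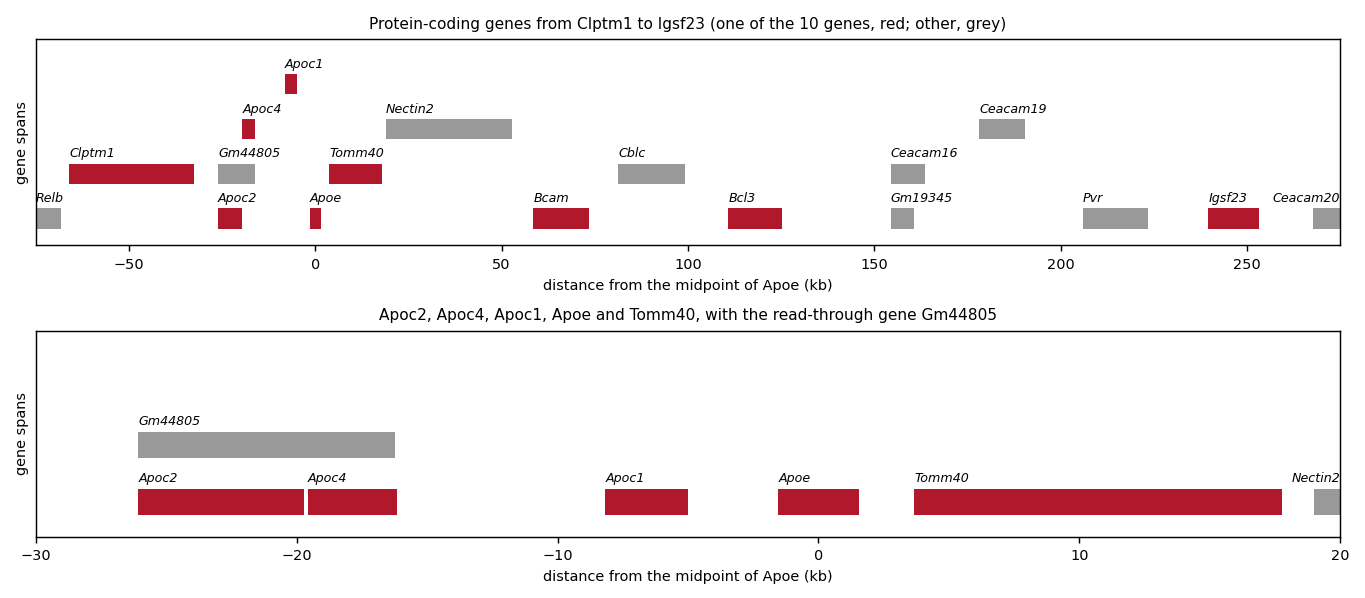
Spans of annotated protein-coding genes, with the distance from the midpoint of Apoe in kb on the x axis and no scale on the y axis; the upper panel runs from Relb past Igsf23 and the lower one enlarges the apolipoprotein cluster. The described genes are red, other genes grey, Sae1 is off the scale to the left, and Gm44805 covers both Apoc2 and Apoc4.

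The RefSeq promoter table (GRCm38.p6) held 8 of the 10 genes, those other than Apoc1 and Sae1. Its entries run from 250 bases before to 50 after an annotated start. Those of Apoe, Igsf23 and Apoc2 are shown because these are the gene with the largest difference in 1 library, the gene furthest below all other libraries there, and the gene with the clearest separation of diet groups. They are the reference sequence, not that of the mice, and where several starts were listed the one nearest to the GENCODE start was taken. The 3 windows are chr7:19699139-19699438, chr7:19950694-19950993 and chr7:19677892-19678191, all on the minus strand, and capitals mark matches, on either strand, to the TATA box (TATAAA), the GC box (GGGCGG), the CCAAT box (those 5 letters) or the half-site of nuclear receptors (AGGTCA).
Apoe: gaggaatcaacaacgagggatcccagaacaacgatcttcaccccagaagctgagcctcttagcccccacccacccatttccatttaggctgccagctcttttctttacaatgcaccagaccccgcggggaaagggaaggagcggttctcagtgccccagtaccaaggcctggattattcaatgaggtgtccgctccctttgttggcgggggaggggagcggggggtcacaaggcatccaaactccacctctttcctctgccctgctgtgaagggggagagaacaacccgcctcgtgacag
Igsf23: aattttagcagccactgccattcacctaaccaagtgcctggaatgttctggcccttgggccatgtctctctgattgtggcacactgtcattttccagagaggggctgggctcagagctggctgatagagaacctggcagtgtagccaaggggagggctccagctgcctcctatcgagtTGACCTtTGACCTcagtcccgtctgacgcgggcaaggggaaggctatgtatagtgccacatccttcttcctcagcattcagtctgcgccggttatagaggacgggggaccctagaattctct
Apoc2: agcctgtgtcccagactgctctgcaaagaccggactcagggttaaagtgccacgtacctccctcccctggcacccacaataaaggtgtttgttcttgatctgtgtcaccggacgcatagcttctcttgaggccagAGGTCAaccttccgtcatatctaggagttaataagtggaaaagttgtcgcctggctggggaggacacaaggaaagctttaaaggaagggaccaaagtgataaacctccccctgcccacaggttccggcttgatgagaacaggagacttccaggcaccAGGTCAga
The window of Apoe held none of the 4 motifs. Those of Igsf23 and Apoc2 each held the half-site in 2 places. The Igsf23 matches begin 72 and 65 bases before the start, separated by a single base. The Apoc2 matches lie 115 bases before the start and 43 after it. Of 32851 mouse promoter windows of this length, 16.3% held the half-site, 13.6% the TATA box, 35.7% the GC box and 37.4% the CCAAT box. The Tomm40 window held 5 CCAAT boxes and 3 GC boxes, and those of Clptm1 and Bcl3 held 3 GC boxes each. A match describes letters in the window and is no measurement of binding.

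The libraries held 16215194 to 18538463 counts and their TMM factors, which correct for RNA composition, ran from 0.865 to 1.26. Levels are in CPM (counts scaled to library size), which compare 1 gene between libraries. TPM values, which also divide by exon length, are used to compare genes. Intervals from counts cover counting error only. Besides the Apoe counts below, 2 libraries were at odds with their sex label. The libraries labelled HFD + PBS replicate 6 and normal diet replicate 5 held 10970 and 17065 counts of Xist, the RNA of the inactive X chromosome, and none of the Y-linked genes. The other 7 held at most 4 counts of Xist and 2837 to 3385 of the Y-linked genes. All 8 hepatocyte markers were detected in every library. Among markers of neighbouring tissues, 1 or 2 of 5 pancreatic acinar genes and 1 or 2 of 4 skeletal muscle genes had any count.

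Apoe itself separated the libraries. It had 235888, 1390 and 1655 counts in HFD + IgG1 replicates 5, 6 and 7, against 884, 737 and 711 in HFD + PBS replicates 3, 4 and 6 and 225, 1141 and 785 in normal diet replicates 4, 5 and 6. Only the library labelled HFD + IgG1 replicate 5 was high, with a 95% Poisson interval of 234937 to 236842 counts. In CPM the level was 16832, 74.3 and 99.9 with IgG1, against 39.0, 42.1 and 36.7 with PBS and 13.7, 63.5 and 47.1 on the normal diet. The library labelled HFD + IgG1 replicate 5 thus stood 377 times above the median of the other 8 and 168 times above the highest of them. Apoe made up 1.45% of all its counts and was its gene of rank 6 by TPM, while it ranked between 967 and 4641 in the others. The label ApoE-/- and the Apoe count of that library go against each other. The remaining 8 libraries were not at 0 either: the lowest, normal diet replicate 4, had 225 counts (95% Poisson interval 197 to 256) and a level 2.67-fold under the next one. A table of counts per gene does not show which exons those reads came from, and a gene count outside the removed part would check nothing.

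**Figure D2:**
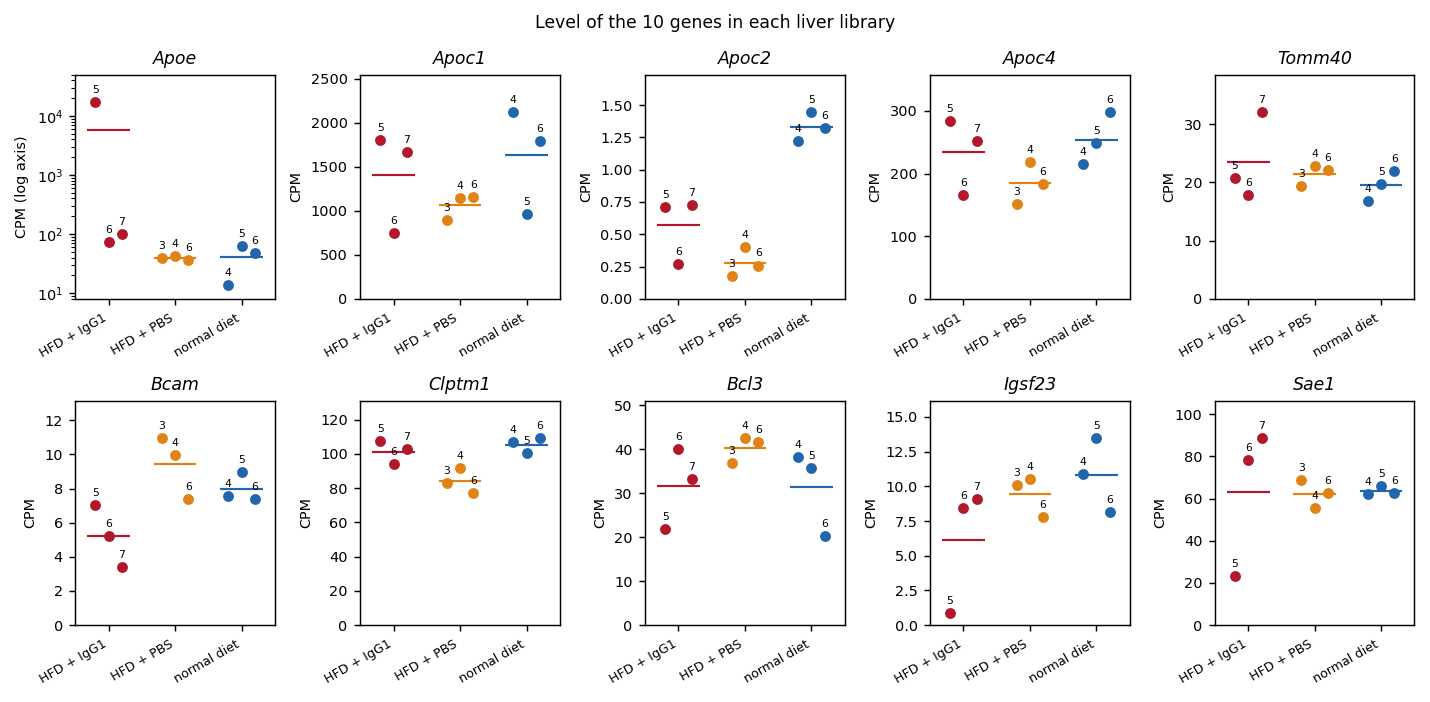
Level of each of the 10 genes in CPM (y axis; log axis for Apoe, linear from 0 for the others) in the libraries of HFD + IgG1, HFD + PBS and normal diet, with points numbered by replicate and bars at the group mean. Replicate 5 of HFD + IgG1 is the highest point for Apoe, at 16832 CPM, and the lowest for Igsf23 and Sae1, at 0.856 and 23.0 CPM.

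The neighbouring apolipoprotein genes did not share the Apoe difference. Apoc1, the most abundant of the 10 by TPM, had 1805, 750 and 1667 CPM with IgG1, against 898, 1150 and 1161 CPM with PBS and 2122, 966 and 1796 CPM on the normal diet. The 3 groups overlapped, and replicate 5 of IgG1 lay below normal diet replicate 4. Apoc4 had 284, 165 and 252 CPM with IgG1, against 151, 218 and 184 CPM with PBS and 216, 248 and 298 CPM on the normal diet. It spanned a 1.97-fold range over all 9 libraries. The Apoc1 span ends 3448 bp from the Apoe span, and its level in the library labelled HFD + IgG1 replicate 5 was 1.56 times the median of the other 8. For Apoc4 this ratio was 1.31.

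Apoc2 was counted thinly. It had 10, 5 and 12 counts in the IgG1 libraries, against 4, 7 and 5 in the PBS libraries and 20, 26 and 22 in the normal diet libraries. In CPM this was 0.568 ± 0.261 with IgG1, 0.278 ± 0.113 with PBS and 1.33 ± 0.11 on the normal diet (SD, n = 3 each). All 3 normal diet libraries lay above all 6 high-fat diet libraries, and IgG1 and PBS libraries overlapped. The 95% Poisson interval of the highest high-fat count, 12, is 6.20 to 20.96, and that of the lowest normal diet count, 20, is 12.2 to 30.9, so these 2 libraries could not be told apart at this depth.

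The other neighbours fill different roles in the cell. Tomm40, the channel of the mitochondrial outer-membrane translocase, had 20.7, 17.8 and 32.1 CPM with IgG1, against 19.4, 22.8 and 22.1 CPM with PBS and 16.8, 19.8 and 21.9 CPM on the normal diet. Replicate 7 of IgG1 was 1.41 times the highest of the other 8, and the groups overlapped. Clptm1, a multi-pass membrane protein whose human gene was named from a cleft lip and palate translocation, had 107, 94.1 and 103 CPM with IgG1, against 82.9, 92.0 and 77.1 CPM with PBS and 107, 100.3 and 109 CPM on the normal diet. Its range over 9 libraries, 1.42-fold, was the narrowest of the 10 genes, and all PBS libraries lay below all others. Bcam, the Lutheran glycoprotein that binds laminin, had 7.06, 5.24 and 3.38 CPM with IgG1, against 10.95, 9.95 and 7.38 CPM with PBS and 7.57, 8.96 and 7.38 CPM on the normal diet. All IgG1 libraries were lower than every other library, with replicate 7 of IgG1 the lowest. Bcl3, a nuclear member of the I-kappa-B family that binds NF-kB subunits p50 and p52, had 21.8, 40.0 and 33.3 CPM with IgG1, against 36.9, 42.5 and 41.6 CPM with PBS and 38.3, 35.7 and 20.3 CPM on the normal diet. Replicate 5 of IgG1 and replicate 6 of the normal diet were low, and the groups overlapped.

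Igsf23 and Sae1 were the 2 described genes, besides Apoe, that the library labelled HFD + IgG1 replicate 5 held outside the range of the other 8. Igsf23, a member of the immunoglobulin superfamily, had 12 counts there, and 158 and 150 in the other IgG1 libraries, against 228, 184 and 151 with PBS and 178, 242 and 136 on the normal diet. Its level of 0.856 CPM was 9.10-fold under the lowest of the other 8, which ran from 7.79 to 13.5 CPM. Sae1, a subunit of the enzyme that activates SUMO for attachment to proteins, had 323 counts there, and 1466 and 1467 in the other IgG1 libraries, against 1560, 971 and 1214 with PBS and 1017, 1185 and 1043 on the normal diet. Its level of 23.0 CPM was 2.41-fold under the lowest of the other 8, which ran from 55.5 to 88.6 CPM. Apoc1, Apoc2, Apoc4, Tomm40, Clptm1, Bcam and Bcl3 of that library lay within the range of the other 8.

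By TPM, the medians over 9 libraries ran from Apoc1 at 4590.5 and Apoc4 at 226 to Sae1 at 67.6, Apoe at 61.5, Clptm1 at 42.4 and Bcl3 at 41.0, and on to Tomm40 at 11.7, Igsf23 at 10.4, Bcam at 6.28 and Apoc2 at 1.94. Apoc1 (2822 to 7565 TPM) and Apoc4 (182 to 284 TPM) did not overlap. Sae1 (19.6 to 89.4 TPM), Clptm1 (36.5 to 45.6 TPM) and Bcl3 (19.4 to 50.3 TPM) overlapped one another, and Apoe in the 8 low libraries, 17.0 to 108 TPM, overlapped all 3. If reads in the shared exon bases of Apoc2 were dropped in the counting, its TPM and its place are understated, since 167 of its 813 exon bases are unshared. The lowest 4 did so from neighbour to neighbour: Tomm40 (9.87 to 16.5 TPM) with Igsf23 (0.835 to 15.8 TPM), Igsf23 with Bcam (2.45 to 11.5 TPM) and Bcam with Apoc2 (0.732 to 4.74 TPM). The library labelled HFD + IgG1 replicate 5 alone put Apoe, at 17373 TPM, above Apoc1, at 5355 TPM. In the other 8, Apoc1 was the highest of the 10 genes.

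The wider region was read in the same way in every library, as the log2 ratio of a library to the median of the other 8. Genes had to average at least 1 CPM, which kept 40 genes within 1 Mb of Apoe, 8 of them described above, and left out Apoc2. The 40 lay from -0.845 Mb (Mill2, at lower coordinates) to 0.246 Mb (Igsf23), so nothing was read beyond Igsf23. In HFD + IgG1 replicate 5, 6 of the 40 (15%) were past 2-fold, against 12.3% of all 13233 genes at that level, so the share was near that of the genome. Of the 32 genes not described above, 4 were past 2-fold there. Pglyrp1, which encodes a peptidoglycan recognition protein of neutrophil granules, was at -3.60, the coiled-coil gene Ccdc61 at 1.45, the kinase gene Dmpk at -1.26 and Relb, an NF-kB subunit, at -1.23. In HFD + IgG1 replicates 6 and 7, 1 and 5 of the 40 were past 2-fold, against 3.07% and 12.6% of all genes. In HFD + PBS replicates 3, 4 and 6 it was 2, 1 and 1 of the 40, against 13.3%, 8.9% and 6.54% of all genes. In normal diet replicates 4, 5 and 6 it was 1, 1 and 2, against 4.76%, 5.12% and 7.4%.

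Pglyrp1, Dmpk and Relb were also low in other libraries. Pglyrp1 had 0.499, 12.1 and 0.906 CPM with IgG1, against 78.2, 9.89 and 29.4 CPM with PBS and 5.37, 2.67 and 1.02 CPM on the normal diet. It varied with the summed level of 5 neutrophil markers (S100a8, S100a9, Ly6g, Cxcr2 and Retnlg), which was 7.85, 444 and 12.5 CPM with IgG1, against 2881, 346 and 1098 CPM with PBS and 132, 52.3 and 25.4 CPM on the normal diet. Ly6g was at 0 in IgG1 replicates 5 and 7. The part of neutrophil content in the Pglyrp1 level was not tested, and in bulk RNA fewer cells of a type and less RNA per cell cannot be told apart. Relb was at 2.85 and 2.84 CPM in IgG1 replicates 5 and 7, and Dmpk at 25.7 and 30.1 CPM.

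A stricter measure, chosen after the data were seen, asked for a level outside the whole range of the other 8 by over 2-fold. Within 4 Mb, where 66 genes were read, Apoe, Igsf23 and Sae1 met it in HFD + IgG1 replicate 5, against 1.47% of all genes in that library. None of the 57 genes not described above did. The 66 genes covered the window unevenly, from -3.78 Mb (Selenow, at lower coordinates) to 0.246 Mb (Igsf23) from Apoe. None lay between -2.68 and -0.845 Mb. Beyond Igsf23 no gene of the window averaged 1 CPM, so that side was not read. In HFD + PBS replicate 3, 3 of these 57 met it, all higher, against 3.05% of all genes. In normal diet replicate 4 Apoe alone met it, on the low side, against 0.31% of all genes. None of the 66 met it in the remaining 6 libraries, where 0.0529% (HFD + IgG1 replicate 6), 1.19% (HFD + IgG1 replicate 7), 1.5% (HFD + PBS replicate 4), 0.219% (HFD + PBS replicate 6), 0.37% (normal diet replicate 5) and 0.431% (normal diet replicate 6) of all genes did. The described genes were chosen with their values known, and Igsf23 and Sae1 may have been chosen for them, so their excess over the other 57 is no test of position.

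**Figure D3:**
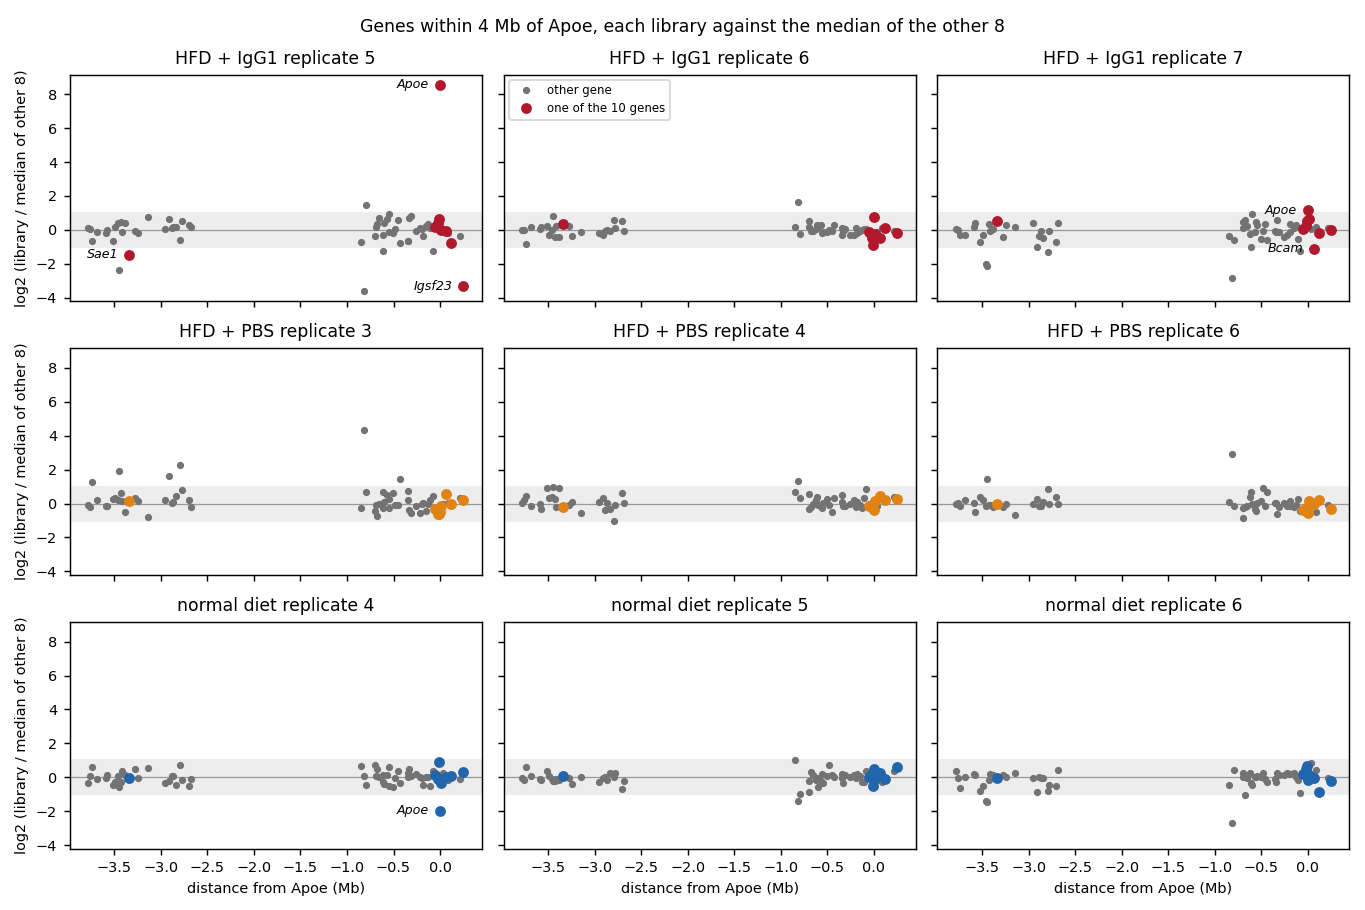
Log2 ratio of each library to the median of the other 8 (y axis) for the 66 genes that average at least 1 CPM within 4 Mb of Apoe, by distance from Apoe in Mb (x axis), 1 panel per library; coloured points are the described genes and the grey band marks less than 2-fold. Replicate 5 of HFD + IgG1 holds Apoe at 8.56, Igsf23 at -3.32 and Sae1 at -1.47. The grey point at -3.60 in that panel is Pglyrp1. No gene was read beyond Igsf23, at 0.246 Mb.

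HFD + IgG1 was set against HFD + PBS, groups that differ by label in the antibody given after the diet. HFD + PBS replicate 6 held Xist and no Y-linked counts, while every IgG1 library held Y-linked counts. HFD + IgG1 replicate 5 held 235888 Apoe counts. The groups were thus unbalanced in sex markers and Apoe level too, which cannot be fully told apart from the antibody. None of the 10 genes passed edgeR's quasi-likelihood test at an adjusted p of 0.05, where 0% of all 14763 genes were called. At an unadjusted p under 0.05 it was Apoe and Bcam, where 24.2% of all genes were. Bcam averaged 5.23 ± 1.84 CPM with IgG1 and 9.42 ± 1.84 CPM with PBS (SD, n = 3 each), and the fitted log2 difference was -0.85 (SE 0.28, adjusted p = 0.141 by edgeR). Clptm1 averaged 101.4 ± 6.7 CPM with IgG1 and 84.0 ± 7.5 CPM with PBS, a log2 fold change of 0.27 (SE 0.13, adjusted p = 0.234 by edgeR). Groups did not overlap for Apoe and Clptm1, higher with IgG1, and Bcam, lower, which is 3 of 10 genes where 26.5% of all genes did the same (15.3% higher and 11.2% lower). Bcam passed the test by DESeq2 (adjusted p = 0.0467, the lowest of a range up to 0.952 over the alternatives), which called 8.57% of all genes, and DESeq2 gave no adjusted p for Apoe.

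The Apoe value of this comparison rested on 1 library. Its log2 fold change was 7.17 (SE 2.28) with all libraries and 1.11 without the library labelled HFD + IgG1 replicate 5, when 74.3 and 99.9 CPM with IgG1 stood against 36.7 to 42.1 CPM with PBS. Igsf23 was at -0.62 with that library and -0.15 without it, and Sae1 at 0.023 with it and 0.38 without it. Bcam was at -1.16 and Clptm1 at 0.19 without it. Without HFD + IgG1 replicate 6, Apoe was at 7.76 and passed edgeR's test (adjusted p = 0.0467, the lowest of a range up to 0.952 over the alternatives), when 2356 genes did over all. With all 3 libraries that contradict a label left out, Apoe was at 1.06, Bcam at -1.31 and Clptm1 at 0.13, with none of the 10 called. The apolipoprotein neighbours were at 0.40 (SE 0.37) for Apoc1, 0.34 (SE 0.23) for Apoc4 and 1.02 (SE 0.57) for Apoc2, none past the test. Tomm40 was at 0.14 (SE 0.22) and Bcl3 at -0.35 (SE 0.27).

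Markers of other liver cells were summed beside these levels, and no single marker passed the test. The 6 Kupffer cell markers summed to 590 to 2169 CPM with IgG1 and 1887 to 2544 CPM with PBS, with 1542 to 2050 CPM on the normal diet. The 6 markers of recruited macrophages summed to 39.0 to 133 CPM with IgG1 and 188 to 267 CPM with PBS, with 60.3 to 110 CPM on the normal diet. The 5 endothelial markers, of a cell type that expresses Bcam in many tissues, summed to 226 to 390 CPM with IgG1, 279 to 479 CPM with PBS and 350 to 389 CPM on the normal diet, and the 5 cholangiocyte markers to 21.1 to 24.5 CPM with IgG1, 23.5 to 37.4 CPM with PBS and 14.5 to 19.1 CPM on the normal diet. All markers of the Kupffer, macrophage, endothelial and cholangiocyte lists were detected in every library. The 8 hepatocyte markers summed to 87789 to 172288 CPM with IgG1, 53160.1 to 90197 CPM with PBS and 80447 to 91520.4 CPM on the normal diet. The 5 stellate cell markers summed to 247 to 402 CPM with IgG1, 401 to 556 CPM with PBS and 305 to 464 CPM on the normal diet, and the 4 T cell markers to 2.48 to 4.50 CPM with IgG1, 5.32 to 20.8 CPM with PBS and 2.81 to 12.8 CPM on the normal diet. Between IgG1 and PBS the sums overlapped for Kupffer cells, endothelium, cholangiocytes, stellate cells and hepatocytes, and did not for recruited macrophages and T cells. The library labelled HFD + IgG1 replicate 5 had the lowest Kupffer cell (590 CPM), recruited macrophage (39.0 CPM) and stellate cell (247 CPM) sums of all libraries. It also had the highest hepatocyte sum (172288 CPM), and was at neither end for endothelium, cholangiocytes and T cells. The part of these cell types in the levels of the described genes was not tested.

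HFD + PBS was then set against normal diet. The groups differ in diet and in the PBS injections, and no age is given for the normal diet mice, so these cannot be told apart. The comparison shares the PBS libraries, on the opposite side, with the one above, so opposite signs in both are no separate evidence. None of the 10 genes passed edgeR's test, where 0% of all genes were called, and Apoc2 and Clptm1 had an unadjusted p under 0.05, where 20.8% of all genes did. Apoc2, at 0.278 ± 0.113 CPM with PBS and 1.33 ± 0.11 CPM on the normal diet (SD, n = 3 each), was fitted at a log2 fold change of -2.25 (SE 0.55, adjusted p = 0.0939 by edgeR). It passed by DESeq2 (adjusted p = 0.0131, the lowest of a range up to 0.718 over the alternatives), which called 8.02% of all genes, and by edgeR without HFD + IgG1 replicate 6 (adjusted p = 0.0429). Clptm1, at 84.0 ± 7.5 CPM with PBS and 105.4 ± 4.6 CPM on the normal diet, had a log2 fold change of -0.33 (SE 0.13, adjusted p = 0.203 by edgeR). These 2 genes were also the ones whose groups did not overlap, both lower with PBS, where 28.3% of all genes did not overlap (13% higher and 15.3% lower). With the 3 libraries that contradict a label left out, Apoc2 was at -2.11 (adjusted p = 0.302 by edgeR) and Clptm1 at -0.28. Apoe, at 39.3 ± 2.7 CPM with PBS and 41.4 ± 25.4 CPM on the normal diet, was at -0.078 (SE 1.75). Apoc1 was at -0.61 (SE 0.37) and Apoc4 at -0.46 (SE 0.23), and the other 5 genes lay between -0.20 and 0.36.

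HFD + IgG1 against normal diet combines both steps and shares libraries with each of the comparisons above. Sex markers were unbalanced here too, since normal diet replicate 5 held Xist and no Y-linked counts, unlike every IgG1 library. None of the 10 passed edgeR's test, where 0% of all genes were called. Apoe and Apoc2 had an unadjusted p under 0.05, where 7.04% of all genes did, and DESeq2 called none of the 10, where it called 0.752% of all genes. DESeq2 gave no adjusted p for Apoe here either, so it did not judge that gene. Groups did not overlap for Apoe, higher with IgG1, and for Apoc2 and Bcam, lower, against 11.9% of all genes (5.54% higher and 6.41% lower). Apoc2, at 0.568 ± 0.261 CPM with IgG1 and 1.33 ± 0.11 CPM on the normal diet (SD, n = 3 each), was fitted at -1.23 (SE 0.52, adjusted p = 0.686 by edgeR). Bcam, at 5.23 ± 1.84 CPM with IgG1 and 7.97 ± 0.86 CPM on the normal diet, was at -0.61 (SE 0.28). Apoe was at 7.10 (SE 2.27) with all libraries and 1.06 without the library labelled HFD + IgG1 replicate 5, and Igsf23 at -0.81 (SE 0.62) and -0.32. Apoc1, Apoc4, Tomm40, Clptm1, Bcl3 and Sae1 lay between -0.21 and 0.27.

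**Figure D4:**
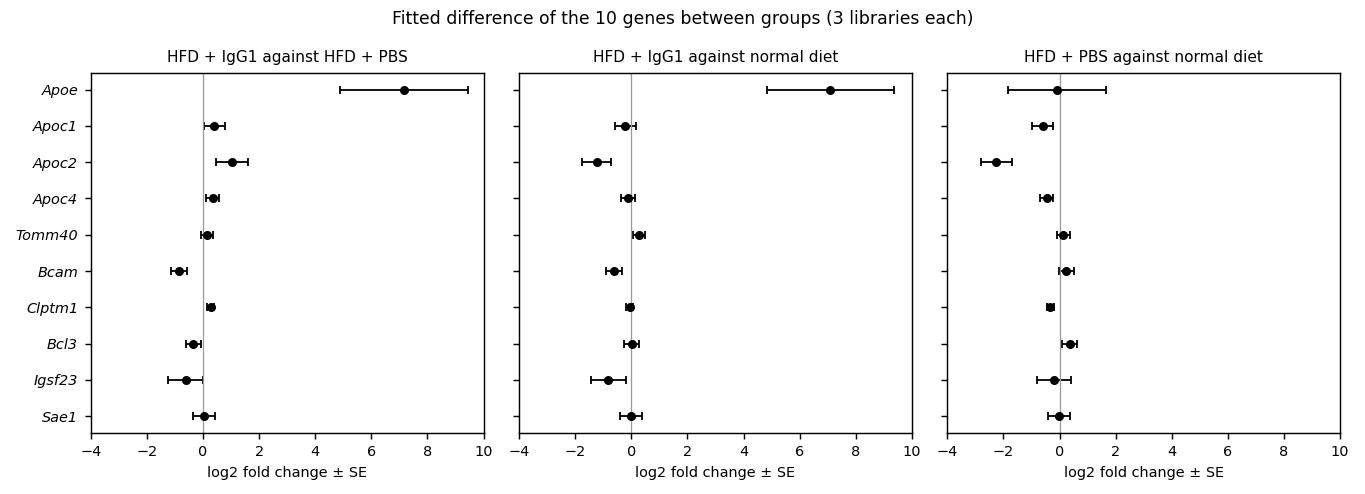
Fitted log2 fold change with its SE (x axis) of the 10 genes (y axis) in the 3 comparisons, 3 libraries per group, positive where the first-named group is higher. Apoe with IgG1 has the widest bars, at 7.17 (SE 2.28) against PBS, and Apoc2 is at -2.25 (SE 0.55) for HFD + PBS against normal diet.

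The genes whose pattern over the 9 libraries came nearest to that of Apoe were ranked by root-mean-square difference of log2 CPM, centred and scaled to an SD of 1, over 14762 genes. They were Zfp422 (0.295), Adamts7 (0.323), Fto (0.331), Echdc1 (0.377) and Slc22a15 (0.381), none of them on chromosome 7. Scaling hides size: Adamts7 was at 17.8 CPM in HFD + IgG1 replicate 5 against a median of 7.48 CPM in the other 8, and Zfp422 at 18.4 against 15.4 CPM. Nearest to Apoc2 were Acaa1a (0.211), a peroxisomal thiolase of fatty acid oxidation, 4930404H11Rik (0.241), mt-Tp (0.261), Rnf4 (0.278) and Stx17 (0.289). Acaa1a had 167, 136 and 181 CPM with IgG1, against 120.3, 152 and 149 CPM with PBS and 210.5, 240 and 237 CPM on the normal diet. Its normal diet libraries also lay above all others, which follows from its choice by likeness to Apoc2 in these libraries.

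Genes that act with Apoe in remnant clearance were read from the same fit, with no gene called in any of the lists below. Every IgG1 value in these lists includes the library labelled HFD + IgG1 replicate 5, and list values without it are not reported here. For IgG1 against PBS, 3569 of 14763 genes had an unadjusted p under 0.05 by edgeR with that library. Without it, 1711 of 15279 genes did. Of 10 receptor genes and regulators of them, 4 had an unadjusted p under 0.05 in HFD + IgG1 against HFD + PBS, with a median log2 fold change of 0.12, against 24.2% and 0.037 over all genes. Sdc1, a heparan sulfate proteoglycan that takes up remnants in hepatocytes, averaged 252 ± 41 CPM with PBS and 327 ± 42 CPM on the normal diet (SD, n = 3 each). The fitted difference was -0.37 on the log2 scale (SE 0.18) and did not pass the test.

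Apoc2 acts on lipolysis, and 11 genes of that step had a median of 0.41 with IgG1 against PBS and -0.17 with PBS against normal diet, where the medians over all genes were 0.037 and -0.0028. Lipc, hepatic lipase, averaged 126 ± 36 CPM with IgG1, 63.9 ± 9.8 CPM with PBS and 119 ± 16 CPM on the normal diet. Lpl, lipoprotein lipase, averaged 112 ± 70 CPM with IgG1 and 312 ± 39 CPM with PBS. The part of liver cell types, whose marker sums are given above, in the levels of Lpl and the other lipolysis genes was not tested. Creb3l3, a liver transcription factor known to raise Apoc2 in mice, averaged 235 ± 28 CPM with IgG1, 164 ± 65 CPM with PBS and 390.0 ± 24.0 CPM on the normal diet. It was fitted at a log2 fold change of -1.25 (SE 0.25, adjusted p = 0.078 by edgeR) for PBS against normal diet. The part of Creb3l3 in the level of Apoc2, which was counted thinly, was not tested. Apoa5, which aids lipoprotein lipase, averaged 512 ± 93 CPM with IgG1, 371 ± 126 CPM with PBS and 911 ± 197 CPM on the normal diet.

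The 9 liver apolipoprotein genes outside the cluster had a median of 0.45 for IgG1 against PBS and -0.41 for PBS against normal diet. Apob averaged 9420 ± 2014 CPM with IgG1, 5864 ± 659 CPM with PBS and 11474 ± 978 CPM on the normal diet. Hepatocyte markers, among them Apoa1 and Apob, were at a median of 0.49 for IgG1 against PBS and -0.16 for PBS against normal diet, and their part in the apolipoprotein levels was not tested. The 9 regulators of the cluster (nuclear receptors such as the LXR genes Nr1h2 and Nr1h3, with C/EBP factors and others) were at 0.26 and -0.41. Cebpa, a hepatocyte transcription factor, averaged 426.7 ± 149.8 CPM with IgG1, 205.3 ± 32.5 CPM with PBS and 317.6 ± 82.4 CPM on the normal diet (SD, n = 3 each). The 9 other LXR targets were at -0.075 and 0.11. Among them Scd1, the stearoyl-CoA desaturase, averaged 7081 ± 2791 CPM with IgG1, 3763 ± 514 CPM with PBS and 759 ± 397 CPM on the normal diet.

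The 5 tested partners of Tomm40 in the translocase, out of 6, had medians of 0.015 for IgG1 against PBS and 0.21 for PBS against normal diet, and the 8 SUMO pathway partners of Sae1 were at -0.096 and 0.14. Uba2, which pairs with Sae1 in the activating enzyme, averaged 32.4 ± 2.8 CPM with IgG1, 39.7 ± 1.8 CPM with PBS and 31.4 ± 3.1 CPM on the normal diet. The 7 NF-kB partners of Bcl3 had a median of -0.66 for IgG1 against PBS, all 7 negative where 47.2% of all genes were, and 0.34 for PBS against normal diet. In IgG1 against PBS all tested markers of Kupffer cells (6), recruited macrophages (6), neutrophils (5), stellate cells (5) and T cells (4) were negative too, and their part in the NF-kB values was not tested. Nfkbia, the inhibitor I-kappa-B alpha, averaged 33.8 ± 7.8 CPM with IgG1, 61.4 ± 9.3 CPM with PBS and 39.1 ± 5.4 CPM on the normal diet, a log2 fold change of -0.86 (SE 0.20, adjusted p = 0.140 by edgeR) for IgG1 against PBS. Bcl3 itself was at -0.35 for IgG1 against PBS and 0.36 for PBS against normal diet. The 4 laminin partners of Bcam were all negative for IgG1 against PBS, where 47.2% of all genes were, with a median of -0.32. The stellate cell markers had a median of -0.47 there. The endothelial markers, 4 of 5 negative, had a median of -0.40. The part of these cells in the laminin values was not tested.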

How the data were processed

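Liver RNA of 9 mice was measured by RNA-seq, with libraries made from 1 µg of RNA per liver by a NEBNext Ultra kit, per the labels. The deposited values are raw whole-number read counts per Ensembl gene ID, as the authors made them. Per the submitters' processing notes, the build was mm10 and Bowtie 0.12.2 was used. Not given in the sources used here were the counting program, annotation version and strand setting. Groups came from the sample titles, and 0 columns were left unmapped. Nothing says more of the replicates than that they are separate livers, so p-values measure the spread between these samples.

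Gene names, positions and exon lengths came from GENCODE M21, which named 54409 of 54532 IDs. In R 4.3.3, edgeR 4.0.16 was run on the counts with TMM factors, filterByExpr (minimum count 10, minimum total 15), 1 mean per group and 9 libraries in the model, and robust quasi-likelihood fits (glmQLFit, glmQLFTest). Tests were two-sided and adjusted by Benjamini-Hochberg over 14763 genes, with 0.05 as the threshold. The common dispersion of 0.101 equals a biological coefficient of variation of 0.318. CPM divide counts by the total over tested genes times the TMM factor; log2 CPM used a prior count of 2. Printed log2 fold changes are shrunken by edgeR, and an SE is the unshrunk value divided by the square root of F. The fits were tested on simulated data.

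The 10 genes and all lists were chosen with earlier results of these data known, so their p-values describe and support nothing. Named genes are the 10, genes overlapping them, neighbours within 1 Mb past 2-fold in HFD + IgG1 replicate 5, up to 3 genes with the smallest p per list and comparison, of which some are given and others are not reported here, and the 5 patterns nearest to Apoe and to Apoc2. Alternatives were DESeq2 1.42.0, limma-voom (limma 3.58.1), RLE and upper-quartile factors, no filter, a filter of 1 CPM in 3 libraries, robust = FALSE, only the 6 libraries compared, a replicate block, each library left out, and the 3 libraries that contradict a label left out together. The outside-range measure was added after the data were seen.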

Additional observations from a re-analysis of the deposited data

How the results depend on the processing

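With all libraries in edgeR, 0 of the 10 genes were called in each of the 3 comparisons, with unadjusted p-values under 0.05 as given above, and limma-voom, RLE and upper-quartile factors, both other filters, robust = FALSE, only the 6 libraries compared and leaving out the 3 libraries that contradict a label also called 0. With only the 6 libraries of HFD + IgG1 against HFD + PBS, Apoc2 did not pass the filter and 9 of the 10 were tested. DESeq2 called 1 gene in HFD + IgG1 against HFD + PBS (Bcam) and 1 in HFD + PBS against normal diet (Apoc2). Leaving out single libraries gave 0 to 1 called genes in these 2 comparisons. Only leaving out HFD + IgG1 replicate 6 gave 1, Apoe with IgG1 against PBS (log2 fold change 7.76, adjusted p = 0.0467 by edgeR, with 2356 genes called over all) and Apoc2 with PBS against normal diet (-2.25, adjusted p = 0.0429 by edgeR, with 576 called over all). Replicate numbers showed no pairing of the libraries. Correlations of deviations from the group means ran from -0.494 to 0.007 between same-numbered libraries, against -0.347 to 0.425 between differently numbered ones. The fit with the replicate block called 0 of the 10 in all 3 comparisons. The 377-fold ratio of Apoe in HFD + IgG1 replicate 5 was 307 with library totals alone, 312 with totals without Apoe, 371 with RLE factors, 365 with upper-quartile factors, and 358 to 399.5 with a library left out.

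Signs turned only for values that passed no test, and the cause was not tested. For IgG1 against PBS, Sae1 was at -0.015 (DESeq2), -0.19 (limma-voom), -0.015 (RLE), -0.051 (upper quartile), -0.0089 (no filter), -0.015 (1 CPM filter), -0.025 (6 libraries) and -0.18 (replicate block), and from -0.32 to 0.38 with a library left out. The replicate block put Apoc4 at -0.034 and Tomm40 at -0.33 here, and Tomm40 ran from -0.19 to 0.31 with a library left out. For IgG1 against normal diet, the block put Tomm40 at -0.076, Bcl3 was at -0.0054 (upper quartile) and -0.0018 (no filter), and Sae1 at 0.0018 (1 CPM filter) and 0.41 (without the 3 libraries). With a library left out, Apoc1 ran from -0.47 to 0.096, Apoc4 from -0.30 to 0.081, Tomm40 from -0.029 to 0.44, Bcl3 from -0.22 to 0.21 and Sae1 from -0.32 to 0.38. For PBS against normal diet, Apoe was at 0.18 (limma-voom), 1.01 (replicate block) and 0.45 (without the 3 libraries), Igsf23 at 0.14 (without the 3 libraries), and Sae1 at 0.00079 (DESeq2), 0.00084 (RLE), 0.029 (upper quartile), 0.017 (1 CPM filter) and 0.026 (without the 3 libraries). With a library left out, Apoe ran from -0.46 to 0.37 and Sae1 from -0.079 to 0.073. Apoc2 had 4 to 26 counts per library, and little Apoc2 RNA and a loss of reads in its shared exon bases cannot be told apart.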

Other observations

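Genes outside the range of the other 8 libraries by over 2-fold were counted by chromosome in every library, a measure chosen after the data were seen. Chromosome 7 carries 988 of the 13223 genes (7.47%) that average at least 1 CPM and have a position. It held 32 of the 195 genes (16.4%) outside the range in HFD + IgG1 replicate 5, 0 of 7 in replicate 6 and 4 of 157 (2.55%) in replicate 7. In HFD + PBS replicates 3, 4 and 6 it held 37 of 404 (9.16%), 11 of 198 (5.56%) and 0 of 28. In normal diet replicates 4, 5 and 6 it held 6 of 41 (14.6%), 5 of 49 (10.2%) and 2 of 56 (3.57%). The 32 include Apoe, Igsf23 and Sae1, and the 6 of normal diet replicate 4 include Apoe, described genes that were chosen with their values known. Neighbouring genes are not independent of each other, and no test was made.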
